A study of Mus musculus with 6 samples.

Results

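Cells take up long-chain fatty acids with the help of surface receptors and binding proteins, join them to coenzyme A and then burn them, build them into membranes or store them as triglyceride in lipid droplets. The genes described here, Cd36, Acsl1, Acsl3, Acsl4, Acsl5, Acsl6, Plin2, Plin3, Lpin1 and Fabp5, encode proteins of those steps. They were followed in red blood cell precursors of the mouse fetal liver, with and without the transcription factor STAT5. Cd36 is a fatty acid receptor that early erythroblasts carry on their surface and lose as they mature. STAT5 is activated by the erythropoietin receptor.

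All probe sets that the array annotation pairs with 1 of these 10 symbols alone were taken, 18 of the 45037 probe sets on the array that are not controls. They cover 9 of the 10 genes: 3 probe sets each for Cd36, Acsl3 and Acsl4, 2 each for Fabp5, Lpin1 and Acsl6, and 1 each for Acsl5, Plin2 and Plin3. No probe set was paired with Acsl1, which has no signal here and enters only the promoter counts. The genes were chosen by symbol, with the knockout minus wild type differences on these arrays, such as the fall of Cd36, already known. Their differences, and the p-values of the fit over all probe sets, are therefore descriptions of these arrays and support nothing by themselves.

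The arrays were Affymetrix Mouse430_2 GeneChips hybridised with RNA of Ter119-positive cells, taken from the liver of mouse embryos on day 14.5. There were 3 wild type and 3 STAT5 knockout (STAT5 KO) pools, each of 3 to 5 embryos of 1 genotype and each on 1 array. The labels give neither the knockout allele nor the strain. Ter119 marks the erythroid lineage from early precursors to red cells, so each pool mixes stages, and fewer cells of a type cannot be told apart from less RNA per cell. Replicates are separate pools of embryos, and 3 arrays a group limit the precision. Signals are the deposited linear intensities, and differences are log2 signal in knockout minus wild type. SE is their standard error as limma's moderated fit gives it. Levels are mean log2 signal ± SD (n = 3).

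Facts of the whole series that bear on these genes are few. Array medians ran from 175.6 to 215.8. A signal of 162.5 is called the control level. It is the 95th percentile, over all arrays, of 27 probe sets for transcripts of Bacillus subtilis, and between 42.4% and 48.0% of an array's probe sets were dimmer. At all 4 probe sets of Stat5a and Stat5b each knockout array was dimmer than each wild type array. Signals there ran from 178.3 to 731.9 in wild type and from 3.33 to 333.6 in knockout. The differences ran from -3.77 to -1.29, yet none of the 4 passed the fit used below (adjusted p from 0.0899 to 0.235, limma). Not passing that fit is therefore no sign of an unchanged signal. How the deleted part lies to these probe sets is not known here. Of the 16 erythroid markers measured here 15 exceeded the control level in the means of wild type and knockout alike, and Hba-a1 in the wild type mean only. Its probe set, 1453574_at, was dim, at 396.8, 419.5 and 273.6 in wild type and 260.2, 397.8 and 28.4 in knockout pools. Only knockout pool 3 lay under the control level there, and no level of alpha globin is read from it. The median difference of all 18193 genes was -0.08 as deposited. Quantile normalization made it -0.04 and median centring 0.03. Differences below are of deposited signals unless a scaling is named, and each was tested against 0.

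The promoters of the members are shown first, because the study removed a transcription factor. RefSeq (GRCm38.p6) gave 12 promoter windows for 9 of the 10 genes, all but Fabp5, with 3 for Acsl6 and 2 for Acsl1. Of these, 4 are printed: those of Cd36 and Acsl5, the members that passed the test described below, in opposite directions, and those of Plin2 and Plin3, a pair of related droplet coat genes that also differed in opposite directions. Each is the 250 bases before the annotated start, and capitals mark CCAAT and GGGCGG on either strand, which are common promoter elements.
Cd36, chr5:17835897-17836146, minus strand: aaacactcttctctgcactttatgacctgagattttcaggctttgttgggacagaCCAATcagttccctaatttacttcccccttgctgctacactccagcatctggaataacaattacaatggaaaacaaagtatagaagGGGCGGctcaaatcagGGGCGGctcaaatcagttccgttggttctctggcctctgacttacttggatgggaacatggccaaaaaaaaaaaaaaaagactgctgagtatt
Acsl5, chr19:55253119-55253368, plus strand: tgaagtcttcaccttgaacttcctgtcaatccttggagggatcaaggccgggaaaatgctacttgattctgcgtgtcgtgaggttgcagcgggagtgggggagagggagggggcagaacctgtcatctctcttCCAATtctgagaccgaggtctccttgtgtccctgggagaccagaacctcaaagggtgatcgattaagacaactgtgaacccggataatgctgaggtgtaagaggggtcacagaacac
Plin2, chr4:86670060-86670309, minus strand: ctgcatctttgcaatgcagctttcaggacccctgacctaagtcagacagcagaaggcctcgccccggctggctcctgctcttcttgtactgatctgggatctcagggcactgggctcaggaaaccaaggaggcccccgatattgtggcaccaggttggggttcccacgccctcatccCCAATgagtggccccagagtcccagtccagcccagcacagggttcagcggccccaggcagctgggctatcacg
Plin3, chr17:56290512-56290761, minus strand: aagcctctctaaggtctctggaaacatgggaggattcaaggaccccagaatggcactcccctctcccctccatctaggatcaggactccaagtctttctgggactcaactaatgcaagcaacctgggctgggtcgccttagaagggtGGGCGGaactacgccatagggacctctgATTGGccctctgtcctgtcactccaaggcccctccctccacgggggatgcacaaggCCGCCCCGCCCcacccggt
The core motif of STAT5, TTCNNNGAA, which reads the same on both strands, was in 0 of the 12 windows, and in 7.02% of all 32851 promoter windows of that length. With the 50 bases after the start included it was again in 0 of the 12, against 8.30% of all. That says only that these letters are not in these windows. AGATAA on either strand, a core motif of GATA factors, was in 0 of the 12 and in 9.99% of all windows, and TATAAA in 0 and in 12.4%. CCAAT was in 8 of the 12 against 33.8% of all, and GGGCGG in 8 of the 12 against 32.7%. The windows differ in base composition. Only that of Cd36, with 43.2% G and C, and an Acsl1 window, with 48.4%, lie under the 52.4% median of all windows. The others lie above it, from 52.8% in Acsl5 to 75.6% in Acsl3, with Acsl4 at 70.8%. The motif shares above thus set the members against windows of other base composition. The window of Cd36 holds 2 adjacent exact copies of the 16 bases aggggcggctcaaatc, the first of which starts 111 bases before the annotated start, so that its 2 GGGCGG matches stand in a repeat. Such a repeat, 2 copies side by side of a unit of 12 to 40 bases, was in 1.07% of all windows, and among the members in that of Cd36 alone. Units that are themselves a repeated stretch of up to 6 bases were not counted.

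Over the 18 probe sets, 7 were higher and 11 lower in knockout pools. Their median difference was -0.27, where that of all probe sets was -0.07. The knockout arrays were all dimmer than the wild type arrays at 9 probe sets, and all brighter at 4. Over all probe sets those shares were 8.95% and 6.84%. The fit called 3 of the 18 at an adjusted p under 0.05: 2 of Cd36, lower, and the probe set of Acsl5, higher. It called 0.0799% of all probe sets lower and 0.0755% higher. The criterion of the submitters, an unadjusted p under 0.05 with over 1.5-fold, was met by 11 of the 18, 7 lower and 4 higher, and by 3.05% and 2.14% of all probe sets. Since the genes were chosen with this contrast known, nothing is read from these shares. Both genotypes lay above the control level at 12 of the probe sets, 1 genotype at 3 and neither at 3.

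**Figure D1:**
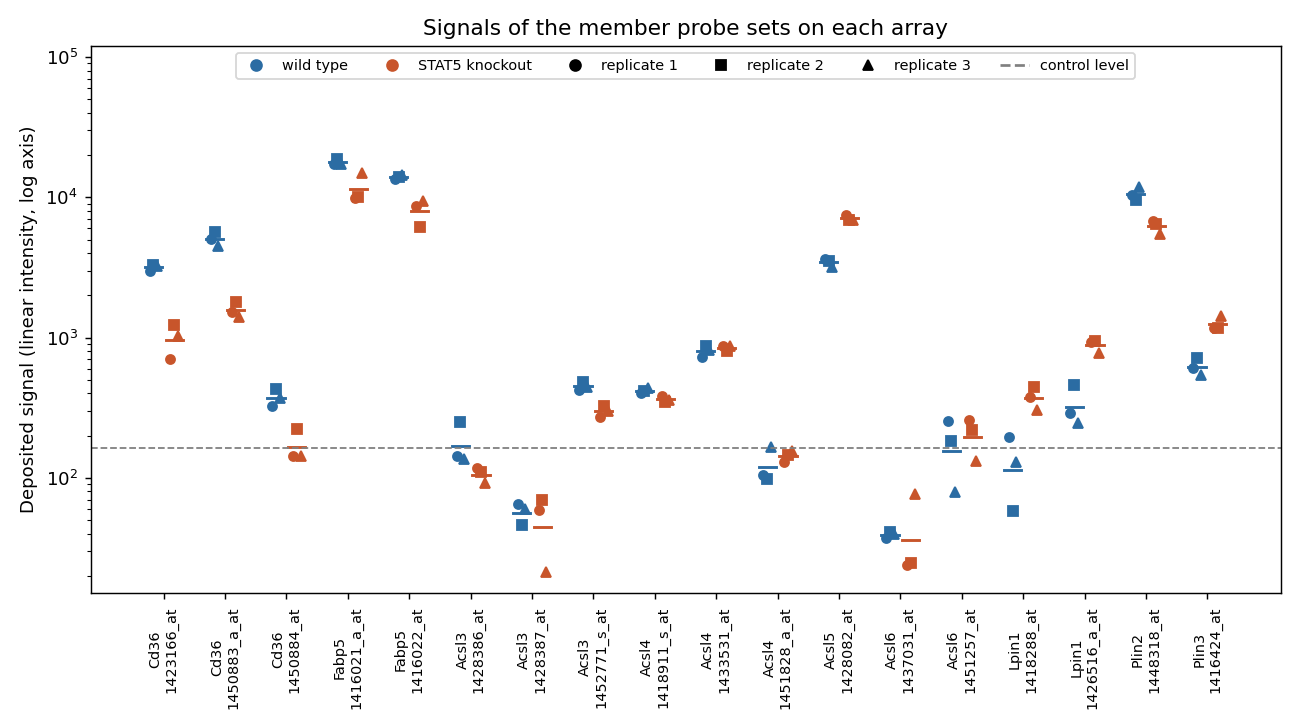
Deposited signal of each of the 18 member probe sets (log axis) on the 3 wild type and 3 STAT5 knockout arrays; points are arrays, short lines are group means of log2 signal, and the dashed line is the control level of 162.5. The knockout points of all Cd36, Fabp5 and Plin2 probe sets lie below the wild type points, and those of Acsl5, Plin3 and Lpin1 lie above them.

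Uptake was represented by Cd36 and Fabp5, and every probe set of both genes was dimmer in each knockout pool than in any wild type pool. At the brightest Cd36 probe set, 1450883_a_at, signals were 5042, 5620 and 4475 in the wild type pools 1, 2 and 3, and 1529, 1794 and 1405 in the knockout pools 1, 2 and 3. The lowest wild type signal was thus well above the highest knockout signal, and the arrays of a group lay close together. The level went from 12.29 ± 0.16 to 10.61 ± 0.18, a fall by 1.68 on the log2 scale (SE 0.15, adjusted p = 0.0072 from limma with its mean-variance trend), or 3.20-fold.

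The second probe set of Cd36, 1423166_at, gave 2967, 3308 and 3221 in wild type and 699.8, 1223 and 1033 in knockout pools. Knockout pool 1 was the lowest here, while pool 3 was the lowest at the first probe set, so the probe sets agree on the genotypes but not on the order of the knockout pools. The difference was -1.72 (SE 0.20, adjusted p = 0.0176, limma), or 3.29-fold. The third probe set, 1450884_at, was far dimmer, with 327.2, 429.5 and 370.6 in wild type and 144.0, 222.9 and 144.4 in knockout pools. Only 1 of the 3 knockout arrays lay above the control level there, and the difference of -1.16 (SE 0.30, adjusted p = 0.229, limma) did not pass. Left out 1 at a time, the arrays moved the difference at the first probe set between -1.78 and -1.60, and its call was lost when wild type replicate 1 was left out (adjusted p = 0.0533, limma). At the second probe set the range was -1.89 to -1.49, and the call ended without wild type replicate 1 or 2 or knockout replicate 3, with adjusted p up to 0.0917. Neither Cd36 call was made in limma's fit without the trend (adjusted p = 0.185 and 0.259).

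Fabp5 encodes a small cytosolic protein that binds fatty acids and carries them inside the cell. At 1416021_a_at its signals were 17175, 18880 and 17401 in wild type and 9922, 10030 and 14833 in knockout pools. Knockout pools 1 and 2 were close to each other, and pool 3 lay nearer to wild type. The level went from 14.12 ± 0.07 to 13.47 ± 0.33, a difference of -0.64 (SE 0.17, adjusted p = 0.251, limma). At 1416022_at the signals were 13595, 14044 and 14361 against 8684, 6163 and 9362, and the difference was -0.82 (SE 0.17, adjusted p = 0.128, limma). Neither probe set passed. The wild type pools hardly varied at either, and the spread lay in the knockout pools. The mouse genome holds a Fabp5 pseudogene, Fabp5l2 in the RefSeq gene table, so signals of Fabp5 may include another locus.

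Activation is the work of the ACSL enzymes, each of which joins long-chain fatty acids to coenzyme A, with family members placed at the mitochondrion, the endoplasmic reticulum or lipid droplets. Of the measured family members only Acsl5 passed the test, and it was higher in knockout pools. Its signals at 1428082_at were 3631, 3515 and 3192 in wild type and 7539, 6904 and 6921 in knockout pools. The groups were narrow and far apart, with levels of 11.75 ± 0.10 and 12.80 ± 0.07. The difference was 1.05 (SE 0.12, adjusted p = 0.0176, limma), or 2.07-fold. Acsl5 encodes an enzyme of the mitochondrial membrane and endoplasmic reticulum. Without any 1 array its difference stayed between 0.99 and 1.09, but the call was kept only without wild type replicate 3. It ended without wild type replicates 1 or 2 or any of the 3 knockout replicates, with adjusted p between 0.0459 and 0.111 over the 6 fits. It was not called without the trend (adjusted p = 0.342, limma).

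Acsl3, an enzyme of the endoplasmic reticulum and of new lipid droplets, had values in the other direction. Its brightest probe set, 1452771_s_at, read 420.3, 482.4 and 445.4 in wild type and 271.6, 325.8 and 302.1 in knockout pools. The groups did not overlap, and the difference of -0.59 (SE 0.22, adjusted p = 0.406, limma) did not pass. At 1428386_at the wild type signals were 142.9, 250.1 and 137.2 and the knockout signals 116.9, 110.4 and 91.4, so that only wild type pool 2 lay above the control level. The third Acsl3 probe set stayed between 21.5 and 69.5 on all arrays, below the control level, and carries no direction.

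Acsl4, which prefers arachidonic acid, had values close to each other in both genotypes. Its brightest probe set, 1433531_at, read 730.2, 874.4 and 822.5 in wild type and 872.5, 800.3 and 870.0 in knockout pools, a difference of 0.07 (SE 0.16). At 1418911_s_at the values were 399.7, 415.3 and 436.0 against 385.4, 348.9 and 359.2, a difference of -0.19 (SE 0.20) without overlap. The probe sets thus gave opposite signs, and neither passed (adjusted p = 0.919 and 0.795, limma). The third lay between 98.1 and 165.5. Acsl6 is known from brain and from red cell precursors. At 1451257_at it read 256.4, 181.9 and 79.7 in wild type and 260.7, 217.7 and 132.4 in knockout pools, around the control level with overlapping groups. Its other probe set, 1437031_at, lay between 24.1 and 77.2, below that level throughout.

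Lpin1 encodes lipin 1, which turns phosphatidic acid into diacylglycerol, the precursor of triglyceride. At its brighter probe set, 1426516_a_at, signals were 289.0, 461.1 and 246.8 in wild type and 929.4, 945.5 and 774.8 in knockout pools. All knockout pools were above all wild type pools, and wild type pool 2 was the nearest to them. The difference was 1.46 (SE 0.26, adjusted p = 0.0775, limma), or 2.75-fold, short of the threshold among probe sets. With 1 probe set per gene, tested over 18193 genes, Lpin1 passed (adjusted p = 0.0488, limma). The dimmer probe set, 1418288_at, read 195.7, 58.1 and 130.5 against 376.5, 447.9 and 307.3. The wild type mean lay under the control level, so knockout was at least 2.16-fold higher (adjusted p = 0.238, limma); for that bound wild type arrays under the control level were set to it.

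The perilipins coat lipid droplets. Plin2 is bound to droplets nearly all the time, while Plin3 moves between the cytosol and small new droplets. Plin2 signals at 1448318_at were 10354, 9517 and 11888 in wild type and 6810, 6442 and 5503 in knockout pools. Its level went from 13.36 ± 0.16 to 12.60 ± 0.16, a difference of -0.76 (SE 0.14, adjusted p = 0.0933, limma), or 1.69-fold lower, without overlap. Plin3 at 1416424_at was the reverse, with 609.4, 716.7 and 540.2 in wild type and 1171, 1172 and 1420 in knockout pools. The difference was 1.02 (SE 0.18, adjusted p = 0.0763, limma), or 2.02-fold higher, without overlap. Neither passed among probe sets, and Plin3 passed over 18193 genes with 1 probe set each (adjusted p = 0.0469, limma), as Lpin1 did. With probe sets averaged per gene Lpin1 passed (adjusted p = 0.0463, limma) and Plin3 did not (adjusted p = 0.0662, limma). The fit with 1 probe set per gene called 0.242% of genes higher and 0.198% lower.

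A ratio formed within an array does not depend on a factor common to all probe sets of that array, and it shows only that 2 genes differed unequally. The log2 ratio of Plin3 to Plin2, set to a mean of 0 in wild type, was 0.01, 0.36 and -0.37 in the wild type pools and 1.55, 1.63 and 2.14 in the knockout pools. That of Acsl5 to Acsl3 (brightest probe sets) was 0.17, -0.07 and -0.10 against 1.86, 1.47 and 1.58. That of Lpin1 to Cd36 was -0.15, 0.36 and -0.21 against 3.25, 3.05 and 3.11. In these 3 ratios the knockout pools lay further from the wild type pools than the pools of either genotype lay from each other. Each pair joins a gene that was higher and a gene that was lower in knockout pools without overlap. Separation of the genotypes in the ratios was therefore fixed by those differences and adds no support to them.

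**Figure D2:**
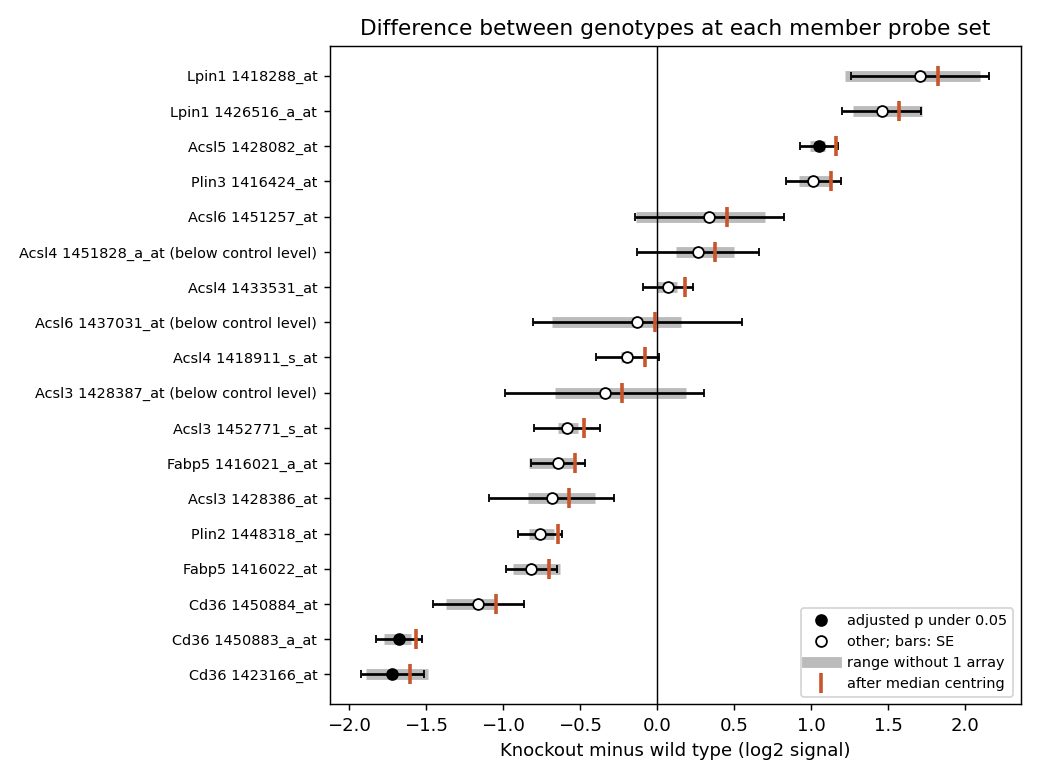
Difference between the genotypes in log2 signal (knockout minus wild type) at each of the 18 member probe sets; points with bars are the estimate and its SE, filled where the adjusted p is under 0.05, grey bands span the fits without 1 array, and orange ticks are the differences after median centring. Filled points are the Cd36 probe sets at -1.72 and -1.68 and the Acsl5 probe set at 1.05.

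Median centring moved every difference up by 0.11, and no sign of a called probe set turned under it or under quantile normalization. The sign of 1428387_at of Acsl3 and of 1437031_at of Acsl6, both under the control level, turned in some fits without 1 array, and the latter also after quantile normalization. In the fits without 1 array the difference at 1451257_at of Acsl6 ran from -0.14 to 0.70, and that at 1433531_at of Acsl4 from -0.0020 to 0.13.

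Most lists of markers of other cells had lower medians in knockout pools, and the medians also varied among the wild type pools. Over all genes 58.1% were lower in knockout pools, and the knockout arrays were all below the wild type arrays for 9.85%. All 19 measured hepatocyte markers (of 21 listed) were lower in knockout pools, with a median difference of -0.71, and for 11 of them the groups did not overlap. Their summed signal was 165173 to 290333 in wild type and 143492 to 157041 in knockout pools, so hepatocyte transcripts were present in every pool; no marker was at 0, Fetub was under the control level in wild type and knockout, and Apoc3 in knockout only. For the lists that follow, markers named as below the control level were so in both genotypes. Endothelial cells and platelets also carry CD36. Of 16 endothelial markers 13 were lower (median -0.39, summed signal 4582 to 7514 in wild type and 4191 to 4598 in knockout pools, with Clec14a, Flt1, Pecam1, Tek, Tie1 and Vwf below the control level). For 4 of the 16 the knockout arrays were all below the wild type arrays: Clec14a (-3.04), Lyve1 (-2.56), Eng (-0.83) and Robo4 (-0.73). Lyve1 read 277.7, 992.5 and 1024 in wild type and 139.5, 77.0 and 128.0 in knockout pools. Its knockout mean lay under the control level, and its fall, at least 4.04-fold, was no smaller than that of Cd36. The 3 higher markers were Kdr (0.13), Vwf (0.08) and Esam (0.03). Of 13 measured megakaryocyte and platelet markers 10 were lower (median -0.57, summed signal 5881 to 18003 and 6087 to 7579, with Itgb3 and Vwf below the control level), and the groups overlapped for each of them.

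Macrophages carry CD36 and store lipid too. Their 18 markers were 9 lower and 9 higher (median 0.07, summed signal 23838 to 36609 in wild type and 30360 to 41074 in knockout pools, with Cd163 and Itgam below the control level). For 2 of the 18 the knockout arrays were all below the wild type arrays. Of 10 measured neutrophil and myeloid markers 9 were lower (median -0.22, summed signal 5263 to 9059 and 3219 to 9499), and Camp lay below the control level. The groups overlapped for all 10. Within the erythroid lineage, 15 of the 16 measured erythroid markers were lower (median -0.21, summed signal 433826 to 444194 and 348389 to 434264). For 6 of the 16 the knockout arrays were all below the wild type arrays. The erythroid median was -0.16 after quantile normalization and -0.10 after median centring, which moved every difference up by 0.11. Klf1 (0.10) and Nfe2 (0.04) were higher after that centring, so the count of lower markers depends on the scaling. Of 12 markers of erythroid progenitors 8 were higher (median 0.21, summed signal 41238 to 46613 and 51592 to 56281), with Cd34 below the control level. Most of that sum comes from Lmo2, Zfpm1 and Itga4, so it hardly reflects the dimmer Kit, Myb and Myc. The knockout arrays all lay above the wild type arrays for 6 of the 12 markers, Myb (1.65), Kit (1.16), Myc (1.10), Cd44 (0.80), Itga4 (0.51) and Lmo2 (0.26). Of all genes 7.02% were so. The 4 lower markers were Meis1 (-0.56), Runx1 (-0.16), Cd34 (-0.15) and Gata2 (-0.03), each with overlapping groups. No marker of these lists was called, though Myb passed in limma's fit blocked on the replicate number, at an adjusted p = 0.0464, against 0.101 without the block. Their part in the differences of the fatty acid genes was not tested.

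**Figure D3:**
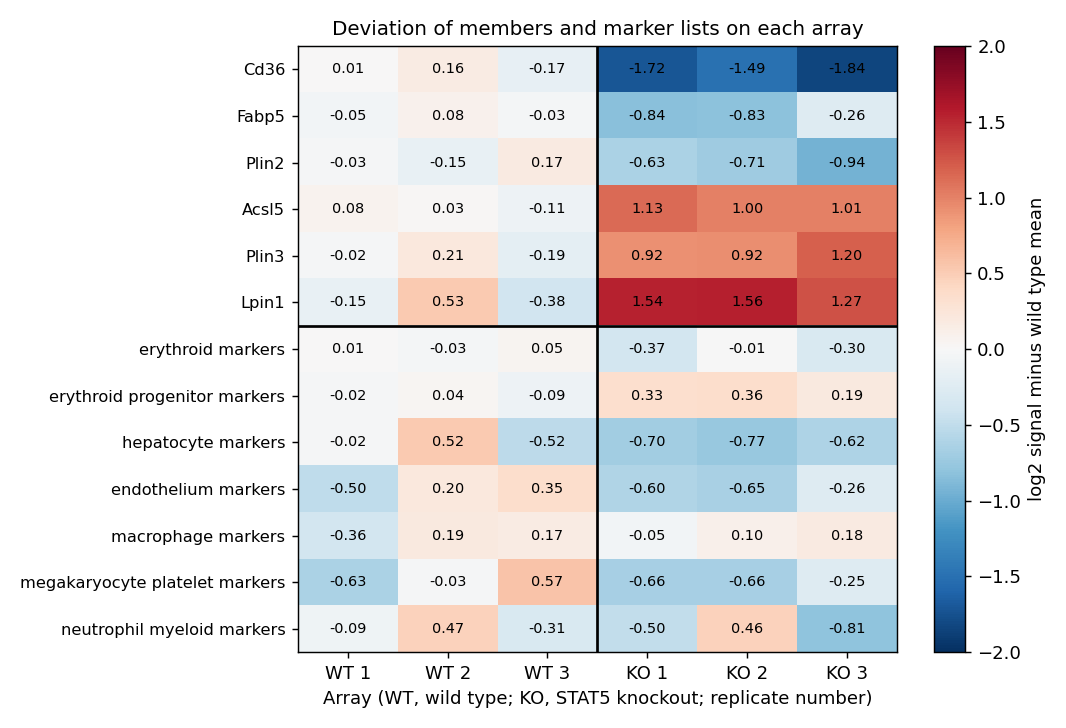
Deviation from the wild type mean, in log2 signal, on each of the 6 arrays (columns), for the brightest probe sets of 6 members and for the median of each marker list (rows); the colour scale runs from -2 to 2. The Cd36 values of the knockout arrays are -1.72, -1.49 and -1.84, those of the hepatocyte list -0.70, -0.77 and -0.62, those of the endothelial list -0.60, -0.65 and -0.26, those of the megakaryocyte and platelet list -0.66, -0.66 and -0.25, and those of the macrophage list -0.05, 0.10 and 0.18. On the wild type arrays 1, 2 and 3 the hepatocyte list is at -0.02, 0.52 and -0.52. There the endothelial list is at -0.50, 0.20 and 0.35, and the megakaryocyte and platelet list at -0.63, -0.03 and 0.57.

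The other genes of fatty acid and triglyceride metabolism were followed in 7 lists, 168 genes of which 158 were measured, each by its brightest probe set. Of these, 94 were lower and 64 higher in knockout pools, and 58.1% of all genes were lower. The median difference was -0.11, where that of all genes was -0.08, and after median centring it was 0.0016. A single gene of the 158 was called, Dgkz, higher, and none lower. Over all genes 0.121% were called higher and 0.0934% lower. The groups did not overlap for 18 that were lower and 10 that were higher, where 9.85% and 7.02% of all genes were so.

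Dgkz encodes diacylglycerol kinase zeta, which turns diacylglycerol into phosphatidic acid, the reverse of the step that lipin 1 catalyses. Its signals were 1292, 1540 and 1764 in wild type and 3128, 3196 and 3338 in knockout pools, without overlap. The difference was 1.08 (SE 0.15, adjusted p = 0.0308, limma). The call ended after median centring, without wild type replicates 1 or 2 and without any of the 3 knockout replicates. The list of glycerolipid synthesis that holds it had 12 of 22 measured members higher and 10 lower, with a median of 0.09.

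In the lists with no called gene, those with the smallest p are given as values. Abhd5, which activates the triglyceride lipase of lipid droplets, read 1095, 999.6 and 1211 in wild type and 622.1, 541.0 and 597.7 in knockout pools, a difference of -0.91 (SE 0.17, adjusted p = 0.0875, limma). Hsd17b11, a droplet enzyme, differed by -0.48 (SE 0.19). Over the droplet list 15 of 27 measured members were lower and 12 higher, with a median of -0.11. Among transcription regulators of lipid genes, Tfeb, a regulator of lysosome genes, read 1542, 1342 and 1065 against 490.1, 553.1 and 753.7, a difference of -1.14 (SE 0.22, adjusted p = 0.0953, limma). Ppara, the receptor that drives genes of fatty acid oxidation, read 412.5, 440.2 and 441.0 against 231.2, 162.8 and 271.6, a difference of -0.99 (SE 0.27, adjusted p = 0.257, limma). For both, all knockout arrays were below all wild type arrays. That list had 13 of 20 members lower, with a median of -0.12.

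Fatty acid uptake and binding genes other than Cd36 and Fabp5 had 14 of 20 members lower, with a median of -0.25. Slc27a5 and Slc27a2, fatty acid transport proteins that are abundant in hepatocytes, differed by -0.71 (SE 0.22) and -0.67 (SE 0.26). Of 17 measured other acyl-CoA synthetases and thioesterases 12 were lower (median -0.21), and 9 of the 17 were under the control level in each genotype. Acss1, the mitochondrial acetyl-CoA synthetase, differed by -0.76 (SE 0.22), and Acsm3 lay below the control level. Genes of fatty acid synthesis were 13 lower and 12 higher (median -0.02), with Hacd3, an enzyme of chain elongation, at 0.68 (SE 0.12, adjusted p = 0.0902, limma) and the desaturase gene Scd2 at -0.61 (SE 0.16). Genes of fatty acid oxidation were 17 lower and 10 higher (median -0.12), with Crat, carnitine acetyltransferase, at -0.40 (SE 0.15), and with Cpt1c under the control level in each genotype.

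**Figure D4:**
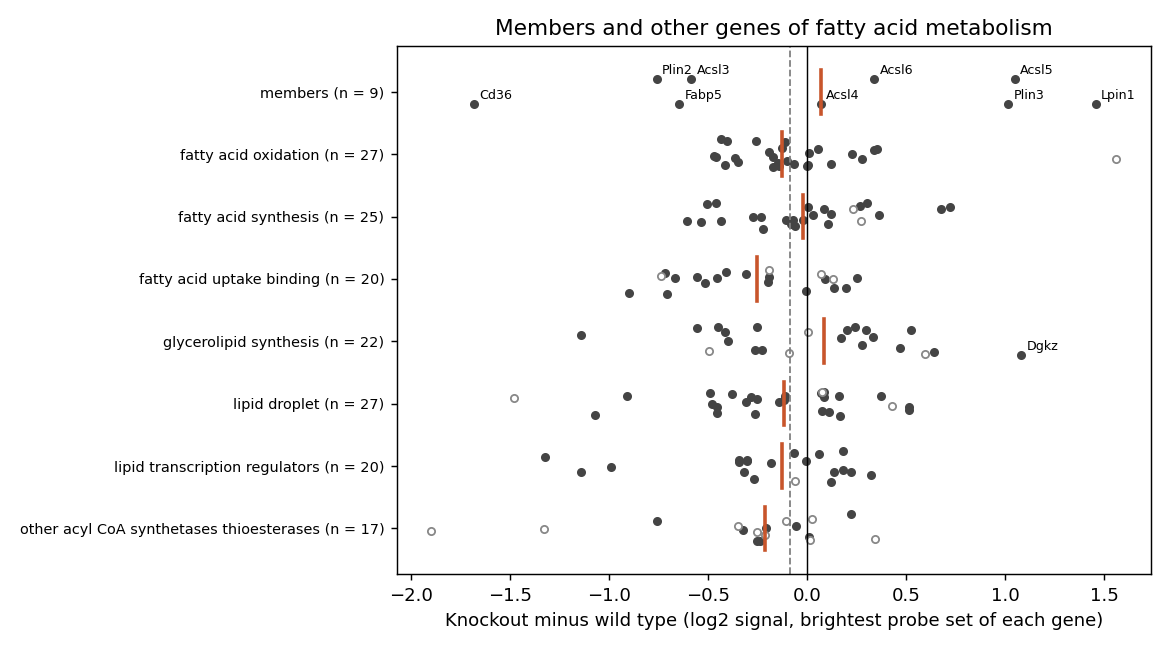
Difference between the genotypes in log2 signal (knockout minus wild type) for the 9 measured members and for the genes of 7 lists, each gene by its brightest probe set; open points are under the control level in each genotype, orange bars are list medians, and the dashed line is the median of all genes at -0.08. Among the list genes Dgkz is the only one named, as the only one called, and most points lie between the values of Cd36 and Lpin1.

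The genes whose pattern over the 6 arrays was most like that of Cd36 were searched among 11766 others whose mean lay above the control level. Likeness was the root mean square difference of log2 signals, each gene centred on its own mean. The 5 closest were 4930554P06Rik (0.073), Rragd (0.164), Cyp4b1 (0.189), Myoz1 (0.213) and Stat5a itself (0.245), which the knockout targets. The knockout means of 4 of the 5 lay under the control level, so their distances and order rest in part on signals not above background. Of these only Cyp4b1, a fatty acid hydroxylase of the cytochrome P450 family, stayed above the control level in both genotypes, with 1627, 1744 and 1376 in wild type and 647.0, 631.1 and 582.7 in knockout pools. For Lpin1 the 3 closest were Ndrg2 (0.229), Fzd7 (0.241) and Maged1 (0.246). Patterns over 6 arrays of 2 genotypes rest mainly on the difference between the genotypes.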

How the data were processed

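The deposited table holds 1 linear intensity per probe set and array, per the labels with biotin-labelled RNA on single-channel arrays. RMA and Partek are named, without version, per the submitters' processing notes. The deposited intensities are linear, and without the lowest and highest 2% of its values every array averages 500, so they are scaled array by array, by steps not given in the sources used here. No pseudocount was added before log2.

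Groups came from the sample titles. The 64 control probe sets were left out. The fit was limma 3.58.1 (R 4.3.3), lmFit and eBayes with a mean-variance trend, on all 45037 other probe sets and 6 arrays, p-values adjusted by Benjamini-Hochberg, and calls at 0.05. The trend was used because the spread grows towards dim signals, and the fit without it, in which no probe set of the array was called (3606 had an unadjusted p under 0.05), is an alternative. The submitters' ANOVA, with 2 groups the methods' t-test, was another. The scripts were tested on simulated data. The members, the lists, the markers and the choice of fit were made with earlier results of these data known.

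Genes were named from GEO's platform annotation (34945 probe sets with 1 symbol) and represented in the lists by the probe set with the highest mean. All member probe sets are named, with the called genes of each list or, with none, the 2 with the smallest p, and for Cd36 the 5 and for Lpin1 the 3 genes of most similar pattern. Motifs other than TTCNNNGAA, and the repeat, were added after the data were seen. A name ending in _s_at marks a probe set whose probes may match transcripts of several genes. The files name no genome build, and coordinates are those of RefSeq's promoter table alone. No scan date or slide was used here.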

Additional observations from a re-analysis of the deposited data

How the results depend on the processing

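The count of called member probe sets, 3 of 18, was also 3 after quantile normalization, after median centring and with 32 added to the signal, each time the same 3, and was 4 of 9 genes with 1 probe set per gene (Lpin1 and Plin3 joined) and 3 of 9 with probe sets averaged per gene (Acsl5, Cd36 and Lpin1, without Plin3). It was 0 without the trend (11 at an unadjusted p under 0.05, limma) and 0 by the methods' t-test after adjustment (12 at an unadjusted p under 0.05). The submitters' criterion gave 11. Without the dimmest 50% of probe sets it was 6, as Plin2, Plin3 and Lpin1 1426516_a_at joined. That fit no longer held 1428386_at and 1428387_at of Acsl3, 1451828_a_at of Acsl4 and 1437031_at of Acsl6. The shares of all probe sets called in it, or with a t-test p under 0.05, are not given here. Nothing is therefore read from its calls or from the 12. Without 1 array the member count ran from 0 to 3: 0 without wild type replicate 1, and 1, Cd36 1450883_a_at, without wild type replicate 2 or knockout replicate 3. The 1 called gene of the other lists became 0 with averaged probe sets, after median centring, without the trend and by the adjusted t-test, 10 by the submitters' criterion, 3 without the dim probe sets (Abhd5 and Tfeb joined) and 0 to 1 without 1 array. The 13 member probe sets without overlap were 12 after either scaling, 12 without the dim probe sets, 13 to 14 without 1 array, and 7 of 9 genes with the brightest or the mean probe set. The TTCNNNGAA count was 0 in both windows. Of 185 differences of single member probe sets recomputed, 182 moved by less than 1 SD of the replicates and 3 by more. The sign turned for 6, and for 0 of the 32 that belong to called probe sets. Among the cell markers, none of which was called in the fit reported, Myb, Myc and Lyve1 were called without the dimmest 50% of probe sets, and Itih2 without wild type replicate 3.

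With the replicate number as a block, 3 member probe sets and 1 list gene were called, the same ones, and Myb joined among the cell markers. The labels give no shared litter or day for a number. Deviations of same-numbered arrays correlated at 0.115, 0.132 and 0.099 over 20907 probe sets, and 6 of 6 arrays were closest to the array of their own number. The 6 matches share the same few correlations and are not independent. They are at most a weak hint from the data and not from the design.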

Other observations

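Some further genes of the lists, chosen after their values were seen, had groups that did not overlap without passing the test (limma with the trend). Among carriers and enzymes that bring fatty acids into mitochondria, Cpt1a was higher in each knockout pool, with signals of 622.3, 599.8 and 703.6 in wild type and 808.8, 786.3 and 860.7 in knockout pools (difference 0.35, SE 0.17), while Slc25a20, the carnitine carrier, differed by -0.41. Hilpda, a droplet protein that inhibits the triglyceride lipase, read 267.8, 278.3 and 244.5 against 405.5, 337.8 and 388.2 (difference 0.51, SE 0.23). Abhd5, which activates the same lipase, differed by -0.91. Plpp3, a lipid phosphate phosphatase that endothelium also carries, differed by -1.14, while Plpp1, of the same family, differed by 0.53. Agpat1, which makes phosphatidic acid, differed by -0.55, and Agpat4, of the same family, by 0.64. Pparg, the receptor that drives lipid storage in fat cells, lay between 11.5 and 27.1 on all arrays, below the control level.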
